A study of Felis catus with 6 samples.

Results

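CSF3R, CAMP and S100A8 are 3 genes of myeloid and mucosal defence whose transcripts differed in opposite directions between lesions of feline chronic gingivostomatitis (FCGS) and healthy oral mucosa of the same cats. They were chosen with that contrast in view, CSF3R and CAMP for higher values in lesions and S100A8 for lower ones. They are 3 of 21529 identifiers in the series, and 3 of the 1965 that could be given a gene name. Their lesion and healthy values are therefore given as a description, with no test.

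RNA was sequenced from 6 biopsies of 3 cats, Bart, Jerome and Sadie, with 1 biopsy of an FCGS lesion and 1 of healthy mucosa beside it from each cat. FCGS is a painful, immune-mediated inflammation of the feline mouth. The cats of the study had no teeth left, were negative for feline immunodeficiency and leukemia viruses, and received buprenorphine for pain but no immunosuppressive drug or antibiotic when sampled. The healthy mucosa came from diseased cats and not from unaffected animals, and the ages of these 3 cats were not given. Each biopsy was a piece of full-thickness tissue that mixes epithelium, connective tissue, vessels, muscle and infiltrating cells. In such bulk samples fewer cells of a type and less RNA per cell cannot be told apart.

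CSF3R encodes the receptor for granulocyte colony-stimulating factor (G-CSF), which drives the production, survival and release of neutrophils. CAMP encodes cathelicidin, a precursor that neutrophils store in secondary granules and that inflamed epithelium can also make, and from which an antimicrobial peptide is cleaved. S100A8 encodes a calcium-binding protein that pairs with S100A9 to form calprotectin, an alarmin that binds metals needed by microbes and is released from damaged cells. Neutrophils and monocytes carry calprotectin in large amounts, and in the mouth the squamous epithelium does so too.

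Levels are given in FPKM, fragment counts scaled to transcript length and library size, which the authors deposited for each library. CSF3R (ENSFCAG00000013269) had 291, 86.9 and 39.2 FPKM in the lesions of Bart, Jerome and Sadie, against 11.3, 11.8 and 0.276 FPKM in their healthy mucosa. Every lesion lay above every healthy sample. The lesions averaged 139 ± 134 FPKM of CSF3R, against 7.79 ± 6.51 FPKM for healthy mucosa (SD, n = 3 per tissue). On the log2 scale, with values below 1 FPKM raised to 1, the lesion exceeded the healthy mucosa by 4.68 in Bart, 2.88 in Jerome and 5.29 in Sadie. The mean difference was 4.29 ± 1.25 (SD over 3 cats), a 19.5-fold difference of geometric means. The value of Sadie depends on that floor, because the healthy mucosa of Sadie lay below it. The fold in Sadie was 39.2 with the floor and 142 from the deposited values.

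CAMP (ENSFCAG00000008790) was the least abundant of the 3 genes in every lesion. It had 16.4, 6.40 and 5.72 FPKM in the lesions of Bart, Jerome and Sadie, against 1.79, 2.45 and 0.596 FPKM in their healthy mucosa. Again all lesions lay above all healthy samples, and the lesion of Bart stood highest. Mean CAMP was 9.502 ± 5.97 FPKM over the lesions, against 1.61 ± 0.939 FPKM for healthy mucosa (SD, n = 3 per tissue). Bart had a log2 difference of 3.20, Jerome of 1.39 and Sadie of 2.52, with a mean of 2.37 ± 0.91 (SD over 3 cats) or 5.15-fold. The CAMP value of Sadie and this mean also depend on the floor of 1 FPKM. The fold in Sadie was 5.72 with the floor and 9.59 from the deposited values, beside 9.16 in Bart.

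S100A8 (ENSFCAG00000001290) was among the most abundant transcripts of both tissues. The name rests on the first symbol column of the table behind it. A second column reads S100A9 in that row, and in it the final number is 1 higher in 1418 of 1424 symbols that end in a digit. That column was not used, and the identity of the transcript was not checked by sequence. It had 6832, 16029.5 and 1962 FPKM in the lesions of Bart, Jerome and Sadie, against 41366, 25489.7 and 5724 FPKM in their healthy mucosa. In each cat the lesion was the lower of the pair, but the groups overlapped, since the healthy mucosa of Sadie lay below the lesions of Bart and Jerome. The lesions averaged 8275 ± 7144 FPKM of S100A8, against 24193 ± 17857 FPKM for healthy mucosa (SD, n = 3 per tissue). Bart had a log2 difference of -2.60, Jerome of -0.67 and Sadie of -1.54, with a mean of -1.60 ± 0.97 (SD over 3 cats). Healthy mucosa thus held 6.05 times the lesion value in Bart, 1.59 times in Jerome and 2.92 times in Sadie.

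**Figure D1:**
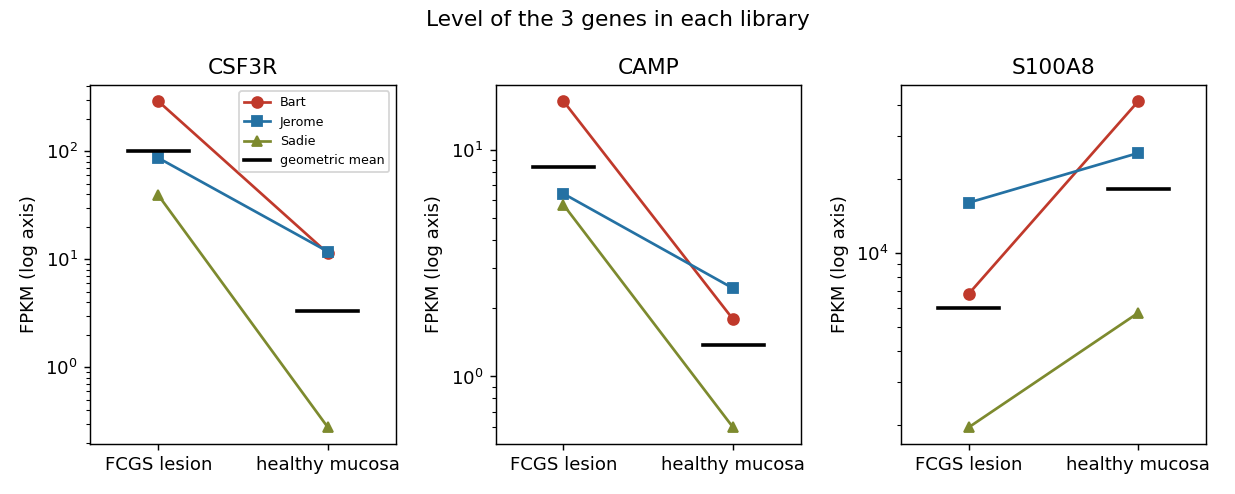
FPKM of CSF3R, CAMP and S100A8 (log axes) in the FCGS lesion, at left, and the healthy mucosa, at right, of each cat. Lines join the samples of 1 cat and black bars are geometric means of the deposited values (3 samples per tissue). Lesions of CSF3R and CAMP lie above all healthy samples, and S100A8 is lower in the lesion of all 3 cats while the tissues overlap.

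All 3 lesions lay above all 3 healthy samples in 16.7% of the 13327 identifiers tested and in 68.0% of the 1292 named ones with a higher lesion mean, and CSF3R and CAMP were chosen on this contrast. A higher lesion in all 3 cats occurred in 28.6% of the identifiers tested, and a lower one, as S100A8 had, in 34.6%. The median log2 difference over all identifiers tested was -0.07.

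Ranked among the 21529 identifiers, CSF3R stood at 407, 1240 and 2503 in the lesions of Bart, Jerome and Sadie, against 6691, 6570 and 14793 in their healthy mucosa. CAMP ranked 5331, 8564 and 9022 in the same lesions, against 11945, 11142 and 13722 in healthy mucosa. S100A8 ranked 18, 11 and 86 in lesions, against 4, 8 and 28 in healthy mucosa. So S100A8 ranked among the leading transcripts in all 6 libraries, whereas the rank of CSF3R differed widely between the tissues of each cat. S100A8 alone made up 0.494%, 0.907% and 0.117% of all FPKM in the lesions of Bart, Jerome and Sadie, against 2.89%, 1.34% and 0.326% in their healthy mucosa.

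Cats differed from each other within a tissue as well. The lesions spanned 7.43-fold for CSF3R, 2.86-fold for CAMP and 8.17-fold for S100A8. For S100A8 the spread among lesions was wider than the 3.04-fold difference between tissues in geometric mean. CSF3R and CAMP both ran Bart, Jerome, Sadie from the highest lesion to the lowest, an order held by 19.3% of the identifiers tested and 27.3% of the named ones with a higher lesion mean. S100A8 ran Jerome, Bart, Sadie in lesions. All 3 genes had their lowest lesion value and their lowest healthy value in Sadie, which 26.1% of the identifiers tested did in lesions and 30.7% in healthy mucosa.

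The other genes of neutrophil biology were counted over 5 lists (receptors and surface proteins, granule proteins, phagocyte oxidase, growth factors and attractants, signaling and transcription). Of 97 genes on these lists, the 3 chosen genes left out, 47 carried a name and 46 passed the filter of at least 1 FPKM in at least 3 libraries. Names came from a table of genes that differed at least 2-fold, so the named members were selected for a difference. The 328 rows with the largest falls gave no names, which favors higher lesion means among the named genes. Lesions had the higher mean in 46 of the 47 and healthy mucosa in 1, BST1. With limma across all identifiers tested and Benjamini-Hochberg adjustment, 16 of the 46 passed an adjusted p of 0.05 as higher in lesions and 0 as lower (35 at an unadjusted p under 0.05 in either direction). That compares with 5.31% of all identifiers tested called higher and 6.61% called lower, and with 31.5% of the named identifiers with a higher mean, which is close to the share on these lists. With the cat as a block 34 were called higher and 1 lower, beside 12.2% and 11.1% of all identifiers and 68.9% of the named higher ones. The 16 calls dropped to 0 without the lesion of Sadie (40 at an unadjusted p under 0.05), without the healthy mucosa of Sadie (28), without the cat Jerome (27) and without the cat Sadie (33). They numbered 6 without the lesion of Jerome, 7 without the healthy mucosa of Bart and 4 without the healthy mucosa of Jerome. Higher calls over all identifiers tested, 707 with all libraries, fell in these fits too. They numbered 0 without the lesion of Sadie, 1 without the healthy mucosa of Sadie, and 0 without the cat Jerome or the cat Sadie. Without the lesion of Jerome 173 (1.3%) were called higher. Without the healthy mucosa of Bart the number was 323 (2.42%), and without that of Jerome 68 (0.51%).

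**Figure D2:**
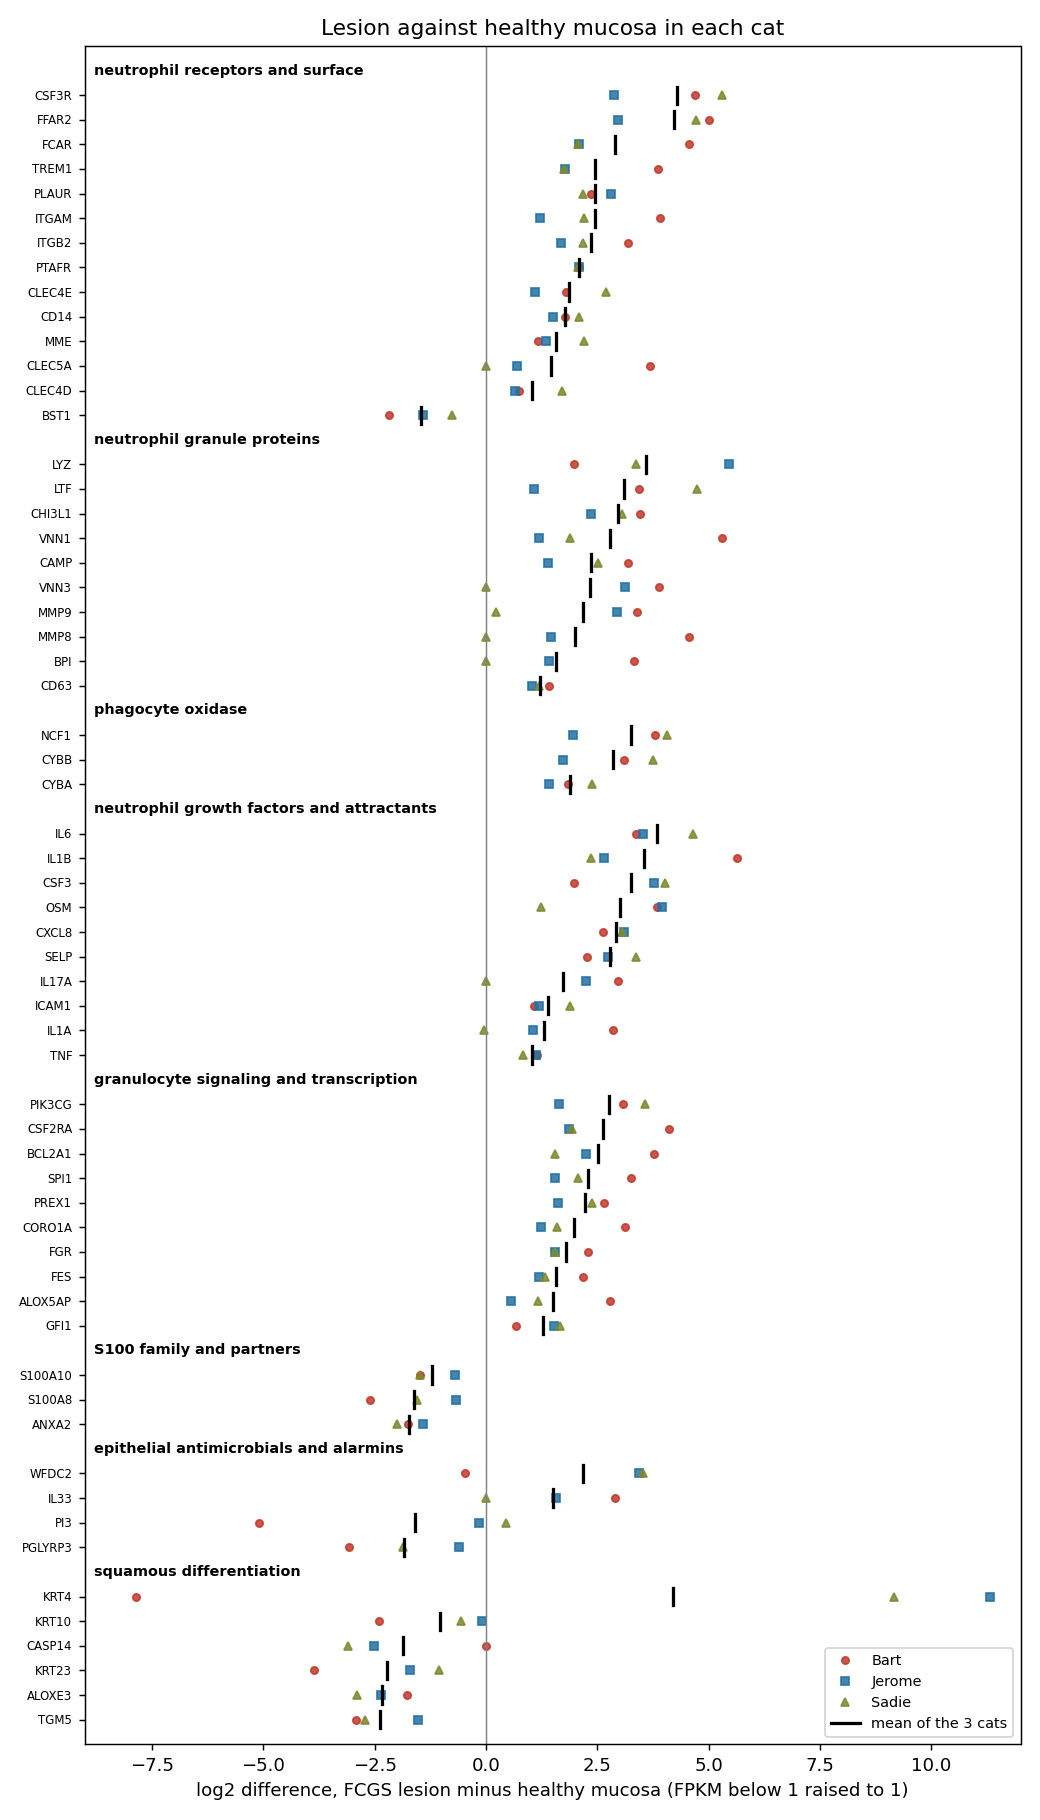
Log2 difference of FCGS lesion minus healthy mucosa in each cat (points) and its mean over 3 cats (black bars) for named genes of 8 lists, with values below 1 FPKM raised to 1. Genes of the 5 neutrophil lists lie to the right of 0 except BST1, at -1.45, whereas S100A8 lies left of 0 with S100A10 and ANXA2.

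Among the receptors, FFAR2, a receptor of neutrophils for short-chain fatty acids, came closest to CSF3R. FFAR2 had 259, 80.7 and 26.4 FPKM in the lesions of Bart, Jerome and Sadie, against 8.08, 10.4 and 0.991 FPKM in their healthy mucosa. FFAR2 differed by 4.23 on the log2 scale (SE 1.17) with a limma adjusted p of 0.0659, and 0.0216 with the cat as a block. The level of CSF3R relative to FFAR2 was 1.12, 1.08 and 1.49 in these lesions, against 1.403, 1.13 and 0.279 in healthy mucosa, where the last ratio rests on values below 1 FPKM.

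FCAR, an Fc receptor for IgA in humans, had 26.4, 6.54 and 4.21 FPKM in the lesions of Bart, Jerome and Sadie, against 1.13, 1.53 and 0.804 FPKM in their healthy mucosa, a rise of 2.91 (limma adjusted p 0.048). FCAR shared the order of CSF3R among the lesions. PTAFR, the receptor for platelet-activating factor, had the most even difference over the cats among the named genes of this list, at 28.3, 27.6 and 19.7 FPKM in the lesions of Bart, Jerome and Sadie, against 6.66, 6.44 and 4.72 FPKM in their healthy mucosa. It rose by 2.08 (SE 0.26, limma adjusted p 0.0198), and by 2.09, 2.10 and 2.06 in the single cats.

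ITGAM and ITGB2 encode the chains of Mac-1, the integrin by which neutrophils adhere and take up opsonized particles. ITGAM rose by 2.44 (limma adjusted p 0.0445), a call lost with the cat as a block, at an adjusted p of 0.052. ITGB2 rose by 2.35 (limma adjusted p 0.0246). BST1, a surface enzyme of myeloid and stromal cells that uses NAD, was the exception of this list. BST1 had 17.1, 31.6 and 47.1 FPKM in the lesions of Bart, Jerome and Sadie, against 77.5, 83.6 and 80.4 FPKM in their healthy mucosa. Its log2 difference was -1.45 (limma adjusted p 0.0561, and 0.0431 with the cat as a block). Of the 14 tested receptor genes 5 were called higher and 0 lower, with 12 at an unadjusted p under 0.05. Of all named genes with a higher mean 31.5% were called higher, and of all identifiers tested 5.31%. The median log2 difference of the receptor genes was 2.22, beside 1.61 for all named genes with a higher mean.

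CSF3 encodes G-CSF, the ligand of CSF3R. CSF3 had 283, 80.3 and 16.3 FPKM in the lesions of Bart, Jerome and Sadie, against 71.7, 5.87 and 0.432 FPKM in their healthy mucosa. The healthy mucosa of Bart thus held more CSF3 than the lesion of Sadie, so the tissues overlapped where those of CSF3R did not. Its log2 difference of 3.26 (SE 1.74) had a limma adjusted p of 0.259, and 0.0243 with the cat as a block. Receptor over ligand was 1.03, 1.08 and 2.40 in the lesions of Bart, Jerome and Sadie, against 0.158, 2.004 and 0.639 in their healthy mucosa, with no common direction over the cats. In the healthy mucosa of Sadie both genes lay below 1 FPKM, so that ratio is 1 with the floor.

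CSF2RA, the alpha chain of the receptor for granulocyte-macrophage colony-stimulating factor, had 86.6, 38.8 and 18.8 FPKM in the lesions of Bart, Jerome and Sadie, against 4.99, 10.7 and 4.91 FPKM in their healthy mucosa. CSF2RA rose by 2.64 (SE 0.62, limma adjusted p 0.0464). The level of CSF3R relative to CSF2RA was 3.36, 2.24 and 2.09 in the lesions of these cats, against 2.27, 1.10 and 0.0563 in their healthy mucosa, and was higher in the lesion in each cat. The last ratio rests on CSF3R below 1 FPKM and is 0.204 with the floor.

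Of the kinases and regulators that act in myeloid cells, those with the smallest p were followed. SPI1, the transcription factor PU.1 of myeloid cells, rose by 2.29 (limma adjusted p 0.0274). FGR, a kinase of myeloid cells, rose by 1.8 (limma adjusted p 0.0219), and the kinase FES rose by 1.57 (limma adjusted p 0.0248). PREX1, an exchange factor for Rac, rose by 2.22 (limma adjusted p 0.0198), and PIK3CG, the phosphoinositide kinase downstream of chemoattractant receptors, rose by 2.77 (limma adjusted p 0.0254). In this list 7 of 11 genes were called higher and 0 lower, with 11 at an unadjusted p under 0.05 and a median log2 difference of 2.22, beside 5.31% of all identifiers and 31.5% of the named higher ones called. With the cat as a block 10 of the 11 were called higher, beside 12.2% of all identifiers and 68.9% of the named higher ones.

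Attractants and inducers of neutrophils were higher in lesions on average, and most passed the test once the cat entered as a block but none did otherwise. CXCL8, interleukin 8, had 623, 186 and 25.8 FPKM in the lesions of Bart, Jerome and Sadie, against 101, 21.8 and 3.10 FPKM in their healthy mucosa. The log2 difference of CXCL8 was 2.63, 3.10 and 3.06 in Bart, Jerome and Sadie, 2.93 on average (limma adjusted p 0.268, and 0.0216 with the cat as a block). The differences of CXCL8 thus lay close together in the 3 cats, although its levels did not.

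IL6, a cytokine of the acute phase, had 1224, 328 and 25.05 FPKM in the lesions of Bart, Jerome and Sadie, against 118, 28.5 and 0.828 FPKM in their healthy mucosa, a difference of 3.85 (limma adjusted p 0.271, and 0.0216 with the block). IL1B, an inflammasome-dependent cytokine, had 218, 48.4 and 5.16 FPKM in these lesions, against 4.41, 7.67 and 0.845 FPKM in healthy mucosa, a difference of 3.55 (limma adjusted p 0.158, and 0.0411 with the block). IL17A, a T cell cytokine that induces CSF3 and CXCL8 in epithelium, was low, at 10.6, 5.38 and 0.628 FPKM in the lesions of Bart, Jerome and Sadie, against 1.36, 1.13 and 0.468 FPKM in their healthy mucosa. Its log2 difference of 1.73 had a limma adjusted p of 0.223, and 0.13 with the block.

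OSM, oncostatin M, a cytokine that neutrophils and macrophages release, differed by 3.01 (limma adjusted p 0.139, and 0.0419 with the cat as a block). SELP, P-selectin of activated vessels, differed by 2.80 (limma adjusted p 0.152, and 0.0216 with the block). ICAM1, the endothelial ligand of Mac-1, differed by 1.38 (limma adjusted p 0.0536, and 0.0261 with the block), and TNF by 1.03 (limma adjusted p 0.0692, and 0.0307 with the block). Of the 10 genes of this list limma called 0 (4 at an unadjusted p under 0.05), and 8 with the cat as a block. Of the named genes with a higher mean 31.5% were called higher, and 68.9% with the block. Over all identifiers tested the shares were 5.31% and 12.2%. The median log2 difference of the 10 genes was 2.86.

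All 10 of these attractants and growth factors had the order of CSF3R and CAMP among the lesions, with Bart highest and Sadie lowest, against 27.3% of the named genes with a higher mean. Most of the 10 also had that order in healthy mucosa (among them CSF3, CXCL8, IL17A, IL6, TNF, OSM, SELP and ICAM1). IL1B, CSF3R and CAMP did not have it there. The share of all identifiers with that order in healthy mucosa was not taken, so its frequency elsewhere is not known here. Over the 5 neutrophil lists 27 of 46 genes had the order of CSF3R among the lesions, and 33 had their highest lesion value in Bart. A highest lesion value in Bart was found in 54.0% of the named higher genes and 41.1% of all identifiers tested. The oxidase genes ran another way, and 3 of 3 had their lowest lesion value in Bart, as did 37.8% of the named higher genes and 44.0% of all identifiers tested. This comparison among lesions rests on 1 biopsy per cat.

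**Figure D3:**
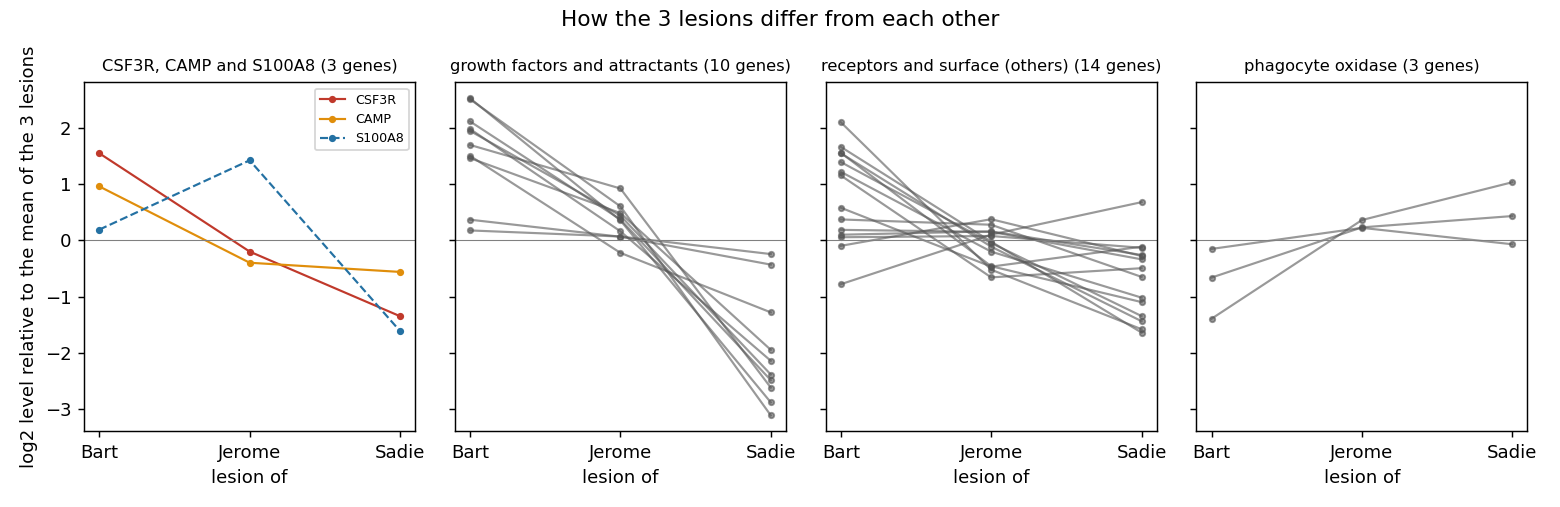
Log2 level in the lesion of each cat relative to the mean of the 3 lesions, for CSF3R, CAMP and S100A8, for 10 growth factors and attractants, for 14 other receptors and surface genes, and for 3 phagocyte oxidase genes (1 line per gene, values below 1 FPKM raised to 1). CSF3R, CAMP and all 10 attractants fall from Bart to Sadie, S100A8 peaks in Jerome, and the oxidase genes are lowest in Bart.

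Granule proteins are the group to which CAMP belongs. LTF, lactoferrin, which shares the secondary granule with cathelicidin, had 10.9, 2.12 and 26.8 FPKM in the lesions of Bart, Jerome and Sadie, against 0.333, 0.533 and 0.0178 FPKM in their healthy mucosa. LTF did not overlap between tissues, but was highest in Sadie, where CAMP was lowest. Its log2 difference was 3.09 (limma adjusted p 0.0723, and 0.057 with the cat as a block). BPI, which kills Gram-negative bacteria, had 10.02, 2.66 and 0.857 FPKM in these lesions, against 0.184, 0.511 and 0.0945 FPKM in healthy mucosa. BPI kept the order of CAMP but missed the filter and was not tested.

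MMP8, the neutrophil collagenase, was concentrated in 1 lesion. It had 88.8, 2.74 and 0.946 FPKM in the lesions of Bart, Jerome and Sadie, against 3.78, 0.185 and 0.115 FPKM in their healthy mucosa (limma log2 difference 2.0, adjusted p 0.462). MMP9, gelatinase B of the tertiary granule, had 24.9, 7.70 and 1.18 FPKM in these lesions, against 2.39, 0.160 and 0.864 FPKM in healthy mucosa (limma log2 difference 2.19, adjusted p 0.237). For both enzymes the healthy mucosa of Bart exceeded the lesion of Sadie.

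CHI3L1 and CD63 were the granule genes that passed the test. CHI3L1, a chitinase-like protein of neutrophils and macrophages, rose by 2.95 (limma adjusted p 0.0474). CD63, a membrane protein of primary granules and of lysosomes in most cells, rose by 1.21 (limma adjusted p 0.022). LYZ, lysozyme, had a log2 difference of 3.59 (limma adjusted p 0.0542, and 0.0391 with the cat as a block). VNN1 and VNN3, pantetheinases of the vanin family, differed by 2.79 (adjusted p 0.103) and 2.33 (adjusted p 0.168) with limma. Thus 2 of 8 tested granule genes were called higher and 0 lower, with 5 at an unadjusted p under 0.05 and a median log2 difference of 2.56. With the block 3 were called higher. Of the named genes with a higher mean 31.5% were called higher, and 68.9% with the block. Over all identifiers tested the shares were 5.31% and 12.2%.

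The phagocyte oxidase makes superoxide in neutrophils and macrophages. CYBB, its catalytic chain, had 31.3, 40.5 and 33.1 FPKM in the lesions of Bart, Jerome and Sadie, against 3.67, 12.2 and 2.45 FPKM in their healthy mucosa, and rose by 2.86 (limma adjusted p 0.0359). CYBA, the membrane partner of CYBB, had 282, 522 and 600.3 FPKM in these lesions, against 78.7, 196 and 115 FPKM in healthy mucosa, and rose by 1.88 (limma adjusted p 0.0447). NCF1, a cytosolic subunit, differed by 3.27 (limma adjusted p 0.0894, and 0.0244 with the cat as a block). Thus 2 of these 3 genes were called higher, and 3 with the block, beside 31.5% and 68.9% of the named genes with a higher mean. Over all identifiers tested the shares were 5.31% and 12.2%. The lesion of Bart, which had the most CSF3R and CAMP, had the least of CYBB, CYBA and NCF1.

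S100A8 had few relatives to be set against. Of 18 S100 genes looked for, 2 carried a name, S100A8 itself and S100A10, which binds annexin A2 and is no part of calprotectin. S100A10 had 1317, 2431 and 1963 FPKM in the lesions of Bart, Jerome and Sadie, against 3650, 3938 and 5513 FPKM in their healthy mucosa. Its log2 difference was -1.22 (SE 0.32, limma adjusted p 0.0614, and 0.0416 with the cat as a block). ANXA2, annexin A2, had 639, 1027 and 662 FPKM in these lesions, against 2158, 2743 and 2636 FPKM in healthy mucosa. ANXA2 fell by 1.72 on the log2 scale (SE 0.26, limma adjusted p 0.023). Limma called 1 of these 2 genes lower, and both with the block, beside 43.2% and 66.7% of the named genes with a lower mean. Over all identifiers tested the shares called lower were 6.61% and 11.1%. Neither S100A10 nor ANXA2 overlapped between tissues, whereas S100A8 did, and all lesions lay below all healthy samples in 21.9% of the identifiers tested and 78.0% of the named lower ones. S100A10 and ANXA2 had their lowest lesion value in Bart, as 53.1% of the named lower genes did, and S100A8 in Sadie.

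The level of S100A8 relative to S100A10 was 5.19, 6.59 and 0.999 in the lesions of Bart, Jerome and Sadie, against 11.3, 6.47 and 1.04 in their healthy mucosa. In Jerome and Sadie the ratio was thus almost equal in both tissues of a cat, and in Bart it was lower in the lesion. S100A9, the partner of S100A8 in calprotectin, and S100A12 name no other identifier here, and no value is given for them.

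Of 20 other epithelial antimicrobials and alarmins 4 carried a name, and these 4 had no common direction. Because the 328 rows with the largest falls gave no names, the direction of the others is not known here. PI3, the elastase inhibitor elafin, had 8.15, 126 and 55.6 FPKM in the lesions of Bart, Jerome and Sadie, against 277, 141 and 40.7 FPKM in their healthy mucosa (limma log2 difference -1.60, adjusted p 0.393). PI3, like S100A8, had its most negative difference in Bart, at -5.09. PGLYRP3, a peptidoglycan-binding protein of epithelium, differed by -1.85 (limma adjusted p 0.0987). IL33, a nuclear alarmin, and WFDC2, a secreted protein with inhibitor domains, differed by 1.5 (adjusted p 0.222) and 2.17 (adjusted p 0.342) with limma. Limma called 0 of these 4 genes in either direction, with 1 at an unadjusted p under 0.05. Over all identifiers tested 5.31% were called higher and 6.61% lower. Of the named genes, 31.5% of those with a higher mean and 43.2% of those with a lower mean were called. With 4 genes, a count of 0 cannot be told apart from these shares.

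Of 40 genes of squamous differentiation 6 carried a name, and 5 of these had the lower mean in lesions. TGM5, a transglutaminase of the cornified envelope, fell by 2.38 (limma adjusted p 0.0264) and ALOXE3, a lipoxygenase of the epidermal barrier, fell by 2.34 (limma adjusted p 0.022). KRT23, a type I keratin, fell by 2.21 (limma adjusted p 0.0485), a call lost with the cat as a block, at an adjusted p of 0.0695. KRT10, a keratin of cornifying layers, differed by -1.02 (limma adjusted p 0.194). CASP14, the caspase of cornification, missed the filter, with 0.320 FPKM in the lesion of Jerome and a listing at 0 in those of Bart and Sadie, against 0.779, 5.72 and 8.56 FPKM in the healthy samples of Bart, Jerome and Sadie.

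KRT4, a keratin of non-cornified oral epithelium, was the other one. It had 8.99, 2534 and 569 FPKM in the lesions of Bart, Jerome and Sadie, against 2089 FPKM in the healthy sample of Bart and a listing at 0 in that of Jerome and Sadie (limma log2 difference 4.2, adjusted p 0.468). Thus KRT4 ran in opposite directions in different cats, which S100A8 did not. In Jerome and Sadie its direction rests on healthy values listed at 0, and the cause of these listings was not tested. In all, 3 of 5 tested genes of this list were called lower and 0 higher (2 lower with the cat as a block). Of the named genes with a lower mean 43.2% were called lower, and 66.7% with the block. Over all identifiers tested the shares were 6.61% and 11.1%. KRT4 also dominated the summed level of the 6 named genes, which was 16.1, 2548 and 589.6 FPKM in the lesions of Bart, Jerome and Sadie, against 2199, 51.3 and 62.5 FPKM in their healthy mucosa. The other 5 genes, all with the lower mean in lesions, summed to 7.14, 13.999 and 20.4 FPKM in these lesions. Their sum was 110, 51.3 and 62.5 FPKM in healthy mucosa, higher than in the lesion of each cat. That direction was largely set in advance, because the sum leaves out KRT4 and the names required a difference. It is therefore no separate support for the fall of S100A8. The part of epithelial content in the S100A8 values was not tested.

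Markers of other cells were set beside these values. Like all named genes, the markers with a name had been selected for a difference of at least 2-fold. Of the named genes with a higher mean limma called 31.5% higher, and 68.9% with the cat as a block. Over all identifiers tested the shares were 5.31% and 12.2%. Of 10 neutrophil markers, 5 could be followed (CSF3R, CAMP, LTF, MMP8 and MMP9), while MPO, ELANE, CXCR1, CXCR2 and FCGR3A carry no name here. The summed level of 6 named of 10 monocyte or macrophage markers was 759 to 1468 FPKM in lesions, against 157 to 432 FPKM in healthy mucosa, with 4 called higher by limma and 6 with the cat as a block. Those cells also use CSF3R, the oxidase and most of the receptors listed. For B and plasma cells, 8 named of 10 markers summed to 436 to 2677 FPKM in lesions, against 32.7 to 289.5 FPKM in healthy mucosa, with 3 called higher and 8 with the block. For T cells, 10 of 10 summed to 240 to 717 FPKM in lesions, against 71.9 to 201 FPKM in healthy mucosa, where limma called 0 (5 at an unadjusted p under 0.05) and 10 with the block. For skeletal muscle, 10 of 10 summed to 28.7 to 4871 FPKM in lesions, against 7.19 to 2070.1 FPKM in healthy mucosa, which overlap, and limma called 0 with or without the block (0 at an unadjusted p under 0.05 without it). Of 10 eosinophil and mast cell markers 0 had a name.

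The lesion of Bart had the lowest value of the 3 lesions in 8 of 8 B and plasma cell markers, 10 of 10 T cell markers, 10 of 10 muscle markers and 4 of 6 macrophage markers. The same held for 37.8% of the named genes with a higher mean and 44.0% of all identifiers tested. The healthy mucosa of Bart likewise had the lowest summed level of each of these 4 marker groups among the healthy samples. In the lesion of Bart CSF3R and CAMP were at their highest. The part of these cell types in the differences of CSF3R, CAMP and S100A8 was not tested.

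The genes whose profiles over the 6 libraries came nearest to each of the 3 were found among 1928 other named identifiers, by the root mean square difference of log2 levels after each gene was centred on its own mean. FFAR2 was nearest to CSF3R, at 0.21, and no unnamed identifier of the 13326 compared was closer. The next were THBS4, a thrombospondin, at 0.80, NAPSA, the aspartic protease napsin A, at 0.86, GREM1, an antagonist of bone morphogenetic proteins, at 0.91, and C4BPA, a complement inhibitor, at 0.92. Up to 8 unnamed identifiers lay nearer than the last of these. The value for FFAR2 depends on the floor, which both genes reach in the healthy mucosa of Sadie, and was 0.82 from the deposited values.

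For CAMP the nearest were TIMP1, an inhibitor of metalloproteinases, at 0.22, SLC39A14, a transporter of zinc and other metals, at 0.26, ADAM19, a membrane metalloproteinase, at 0.27, SLC5A6, a vitamin transporter, at 0.27, and MILR1, an inhibitory receptor of mast cells, at 0.29. The 9 named genes of the granule list were not among them. For S100A8 they were PLEK2, a relative of pleckstrin, at 0.64, VANGL1, a protein of planar cell polarity, at 0.68, PLD1, phospholipase D1, at 0.73, IGSF3, an immunoglobulin-family membrane protein, at 0.74, and NIPAL4, a membrane protein of the skin barrier, at 0.74. The likeness is a description over libraries that share the same 3 cats.

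**Figure D4:**
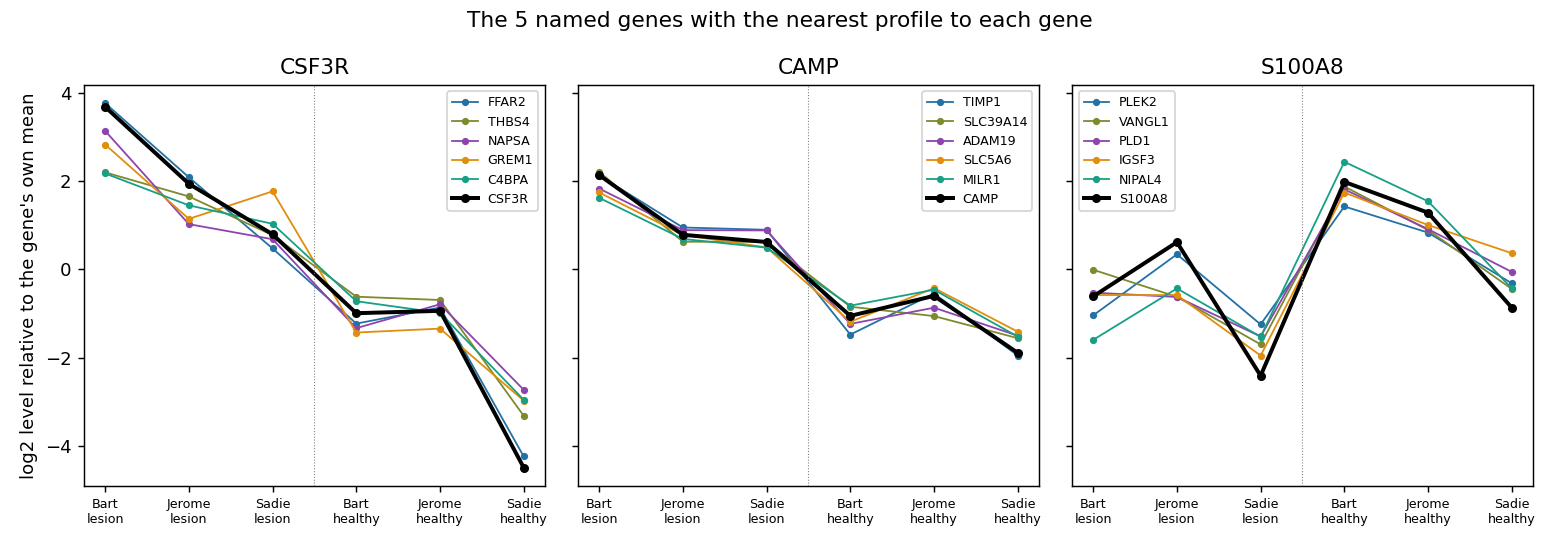
Log2 level in each of the 6 libraries relative to the gene's own mean, for CSF3R, CAMP and S100A8 (black) and the 5 named genes nearest to each (colors), lesions at left and healthy mucosa at right, values below 1 FPKM raised to 1. FFAR2 lies 0.21 from CSF3R (root mean square) with that floor, and the genes nearest to S100A8 lie 0.64 to 0.74 away.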

How the data were processed

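Polyadenylated RNA (200 ng of total RNA, stranded libraries, 15 PCR cycles) was sequenced from 6 biopsies. The labels give single reads of 50 bp and the study's methods give longer paired reads. The authors deposited 1 FPKM value per Ensembl identifier and library, from Cuffnorm, after HISAT and Cufflinks per the submitters' processing notes, which give no versions. Genome build and annotation were not stated in the sources used here, so no coordinates or sequences are printed. FPKM divides by transcript length and library size, and no count model was used. Sums of FPKM were 1382122 to 1903773 per library, and 4688 to 4927 identifiers were listed at 0. Read totals are unknown. Steps between low values placed the relative depth of the libraries within 1.75-fold (1.05-fold misfit between pairs of libraries at most). This estimate is rough, because the most common ratio of a pair held 4.12% to 26.58% of its low values. Whole reads were not recovered because gene lengths were not used here.

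Gene names came from 1981 rows of a supplementary table, each of which matched 1 identifier by its values to 5 significant digits. Identifiers with 2 or more values above 1 FPKM took the name. Another 328 rows, which hold the largest falls, were not used here, so genes without a name may still differ. The table's values served only this match.

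FPKM below 1 was raised to 1 and log2 was taken. The 13327 identifiers that reached 1 FPKM in 3 or more of the 6 libraries entered a two-sided limma 3.58.1 test (R 4.3.3) on tissue alone, with a trend of variance on mean level and p-values adjusted after Benjamini and Hochberg. The procedure was also run on simulated data with independent noise in each library. That simulation held no pairing by cat, so it does not bear on how the fit behaves with the pairs here. Each library is 1 biopsy of 1 animal. The labels give both biopsies of a pair as the same cat, and deviations from the tissue means correlated within a cat at 0.495 for Bart, 0.196 for Jerome and 0.408 for Sadie. A second fit, blocked by cat, is therefore given for each list whose count differs and for each named gene whose call differs. Alternatives were 0.1 FPKM added to every value, FPKM rescaled to sum to 1000000 per library, no filter, and each library or cat left out. Tables were joined in Python 3.11.15 (pandas 2.3.3, numpy 2.4.6) and plots drawn with matplotlib 3.10.9.

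The members and gene lists were chosen with earlier results of these data known. The text names the 3 genes, CSF3, CSF2RA, IL17A, CXCL8, IL6, IL1B, OSM and SELP, all named granule, oxidase, S100 and annexin genes, up to 6 genes with the smallest p of every other list and any of opposite sign, and the 5 nearest profiles. From marker lists only counts and sums are given. Some genes that this rule takes are counted in their lists and not reported here.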

Additional observations from a re-analysis of the deposited data

How the results depend on the processing

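The mean log2 differences of CSF3R, CAMP and S100A8 kept their sign under every alternative run. With single libraries or cats left out they were 3.11 to 4.99 for CSF3R, 1.89 to 2.86 for CAMP and -2.44 to -0.80 for S100A8, the last without the lesion of Sadie. Calls were less stable. Over all identifiers the leave-out counts were 0 to 1036 higher (707 with all libraries) and 0 to 1100 lower (881), and with the cat as a replicate block, the pairing the labels give, 1622 and 1476. Leave-out ranges were 0 to 5 for receptors called higher and 0 to 1 lower, 0 to 3 for granule genes, 0 to 2 for oxidase genes, 0 to 0 for attractants, 0 to 7 for signaling genes, 0 to 1 for S100 genes and partners called lower, 0 to 1 for antimicrobials called higher, and 0 to 1 higher and 0 to 2 lower for squamous genes. The block gave 10 receptors higher and 1 lower, 8 attractants higher and 2 S100 genes and partners lower. Adding 0.1 FPKM gave 3 receptors and 1 oxidase gene higher and 1 antimicrobial gene lower. Rescaling gave 2 receptors and 1 granule gene higher and 1 squamous gene lower. Without the filter 3 receptors, 1 granule gene and 1 oxidase gene were called higher. Over all identifiers tested, the block called 12.2% higher and 11.1% lower. The shares were 4.45% and 5.58% with 0.1 FPKM added, 4.76% and 5.5% after rescaling, and 3.63% and 4.63% without the filter. The cause of the changes in calls was not tested. With 3 cats, 1 biopsy per tissue and unknown read depth, calls near the threshold cannot be separated from the spread between cats, and genes without a name were not followed.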
